A study of Homo sapiens with 24 samples.

Results

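FOXP1 was silenced for 48 h in K422 cells, and RNA from 6 transfections was hybridised against control RNA on 2-colour Agilent arrays, 6 of the 24 arrays in the series. All arrays of this line were taken, whatever their values. K422 is an established human line of the germinal center B-cell-like subtype of diffuse large B-cell lymphoma (GCB-DLBCL). Cells received siFOXP1 #1 (siFOXP1_308) or siFOXP1 #2 (siFOXP1_309) by electroporation, with 3 biological replicates of each, and control cells received a non-targeting siRNA (siCtrl) in the same way. The other 18 arrays hold DB, a second GCB-DLBCL line, and the activated B-cell-like (ABC) lines HBL-1 and OCI-Ly3, treated alike with 6 arrays per line. On all 24 arrays the knockdown sample was labelled with Cy3 and its control with Cy5, and within K422 a preference of a probe for 1 dye cannot be told apart from silencing. The values describe cultures of a single line.

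FOXP1 is a forkhead transcription factor that can repress or activate genes and is expressed from early B-cell development onward. In the germinal center, B cells divide, diversify their antibody genes and are held together as a tissue by receptors such as S1PR2, and FOXP1 normally falls as cells enter this reaction. GCB-DLBCL keeps much of the germinal center program, and FOXP1 is more abundant in the ABC subtype.

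Values are log2 ratios of siFOXP1 over siCtrl after background subtraction and loess normalization in the scanner software, with 1 probe, the brightest, for each gene. A gene is called measured here if all 6 arrays had its probe well above background in 1 channel or both, which held for 17294 of 30139 genes. It was called changed at a limma adjusted p below 0.05 and an absolute log2 ratio of at least 0.5. Genes described as bright in both channels passed background with either dye on all 6 arrays. The other 12845 genes are dim, and their ratios rest on surrogate values that the software puts in place of signal at background. On each array 62.0% to 64.4% of probes passed background with at least 1 dye, and precision is limited by having 6 arrays. The B cell genes MS4A1, CD79A, CD79B and PAX5 were well above background in the siCtrl channel on 6 of 6 arrays. So were the germinal center genes MME, BCL6, LMO2, MYBL1 and SERPINA9, whereas the germinal center marker CD38 was not on any. The ABC markers were split. PRDM1 and BATF passed on 6 of 6 arrays, with median log2 siCtrl signals of 5.07 and 5.06, and IRF4 and TNFRSF13B on 0. The T cell CD3 chains CD3D and CD3G and the myeloid antigen CD33 were also bright in K422. Their median log2 siCtrl signals were 11.7, 12.8 and 10.9, against at most 2.08, 2.99 and 6.18 in the other lines. Other T cell and myeloid markers were not so bright. CD3E, CD14 and CSF1R had medians of 5.82, 4.87 and 5.37, against up to 5.83, 4.59 and 7.76 in the other lines. CD2 passed background on 3 arrays, CD8A on 1, and LYZ and MPO on 0. On silencing, CD3D, CD3G and CD33 had log2 ratios of -0.22, 0.21 and -0.03, and none was called. The part of such cells or transcripts in the results below was not tested.

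The probe for FOXP1 lies at chr3:71091098-71091157 of hg18, and its sequence is shown because every array is read against it.

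FOXP1 probe: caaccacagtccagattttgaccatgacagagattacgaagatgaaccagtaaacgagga

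With siFOXP1 #1 the log2 ratio of FOXP1 was -0.95, -0.96 and -0.83 in replicates 1 to 3, and with siFOXP1 #2 it was -1.80, -1.79 and -1.70. FOXP1 fell on all 6 arrays and the siRNAs did not overlap. The mean was -1.34 ± 0.47 (SD, n = 6; limma adjusted p = 3.30e-09), and siFOXP1 #2 lowered FOXP1 further than #1 by -0.85 ± 0.15 (SE; adjusted p = 0.0246). A second FOXP1 probe gave -1.42. FOXP4, the other measured member of the family, was at 0.13 and was not called.

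Among measured genes, 402 rose (2.32%) and 339 fell (1.96%), together 4.28% of those measured. Most changes were small, with a median size of 0.66 on the log2 scale for genes that rose and 0.65 for those that fell, and 64 (0.37%) and 45 (0.26%) genes passed 2-fold. Without the fold limit, 2576 measured genes were higher and 2506 lower at the same adjusted p, so many genes moved by less than 0.5 on the log2 scale. Of the 741 measured genes called, 683 went 1 way on all 6 arrays (92.2%). Both channels were well above background for 16220 genes, of which 320 rose (1.97%) and 287 fell (1.77%). Dim genes made up 42.8% of all 703 genes called higher (2.33% of genes tested) and 46.4% of all 633 called lower (2.1%), and these are left out of the descriptions of single genes that follow.

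**Figure D1:**
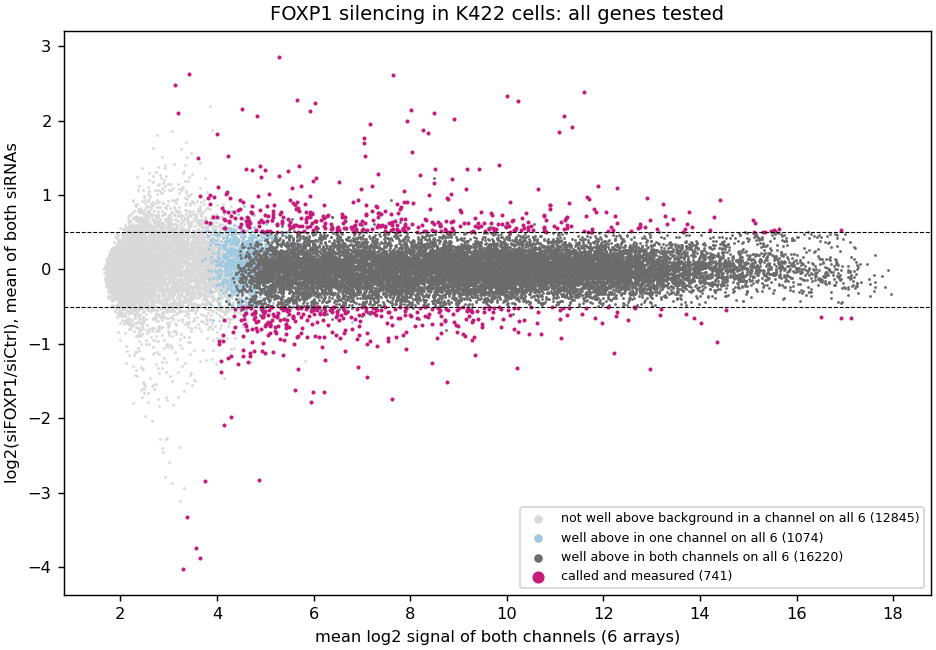
Log2 ratio (siFOXP1 over siCtrl, mean of both siRNAs) against the mean log2 signal of both channels for 30139 genes in K422, with dashed lines at log2 ratios of 0.5 and -0.5. The 741 measured genes called changed are drawn in magenta over the 12845 dim genes (light grey), the genes bright in 1 channel (light blue) and the 16220 bright in both (dark grey), and dim genes spread most at low signal.

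The number of calls depended on the background correction. Under normexp correction with loess, which adds an offset that shrinks ratios, most for dim probes, 156 measured genes rose and 98 fell. Of the 741 genes called, 230 were called again in the same direction, 634 kept an adjusted p below 0.05 and 741 kept their sign. Genes bright in both channels lost calls too, with 220 of 607 called again. Under normexp with median centring and no loess, 79 rose and 402 fell, 194 of the 741 were called again and 740 kept their sign. The share of called genes that were higher, 52.6% over all genes tested, was 61.4% under the first of these corrections, 16.4% under the second and 42.1% in the deposited matrix. Leaving out any 1 array kept 261 of the 402 genes that rose and 202 of the 339 that fell.

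Many of the greatest rises lay in 1 region of chromosome 3. The 12 greatest rises were taken over genes bright in both channels and up on all 6 arrays. Of these, 8 were reported by plus-strand probes within 643 kb of hg18 sequence. These probes lay upstream of, at or just past the probe for LPP, which encodes a LIM-domain protein of cell adhesion sites. They count as 8 genes above but may be 1 transcription unit, since the array names them only as sequences.

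The LPP probe at chr3:190074950-190075009 gave log2 ratios of 1.94, 2.07 and 1.94 with siFOXP1 #1 and 2.04, 2.30 and 2.11 with #2. All 6 arrays were high, and the siRNAs overlap. The mean was 2.07 ± 0.13 (SD, n = 6; adjusted p = 2.09e-10). A second LPP probe, 3.50 kb downstream, gave 2.19. BG502322, THC2551927, AK123506 and AK055214, which lie between 5.50 and 15.6 kb past the LPP probe, gave means of 2.14, 2.32, 2.09 and 2.39. Farther away, AL080232, BU726029 and A_32_P179646 lie upstream, at -627.3, -606.4 and -409.6 kb from the LPP probe, and gave 2.26, 2.00 and 2.01. Whether they belong to the LPP transcript is not given by the array design. Of the neighbors bright in both channels, BCL6, a germinal center repressor whose probe lies 525 kb before AL080232, had log2 ratios from -0.03 to 0.34 with a mean of 0.10 and was not called, and THC2491622, at -664.7 kb on the same strand, was at -0.34 and was not called. Downstream, A_24_P50294 at 114.9 kb was at -0.17 and was not called. On the minus strand, THC2535753 inside the LPP cluster was at 1.28 and THC2653648 between BCL6 and AL080232 at 0.70.

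**Figure D2:**
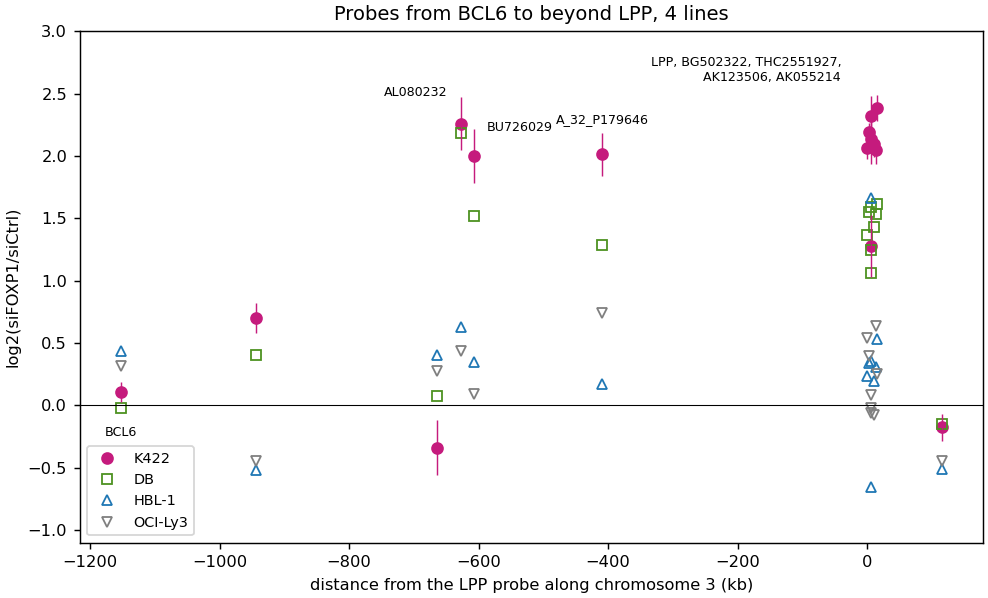
Mean log2 ratio (siFOXP1 over siCtrl) of the 15 probes well above background in both channels in K422, from BCL6 to beyond LPP, by distance from the LPP probe in kb. Filled circles are K422 with the SE of the limma fit, and open symbols are the means of the other lines. Probes at -627.3, -606.4, -409.6 and from 0 to 15.6 kb on the plus strand lie between 2.00 and 2.39 in K422 and between 1.06 and 2.18 in DB, and BCL6 lies near 0 in both.

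The same 8 probes ranged from -0.65 to 0.63 in HBL-1, from -0.07 to 0.74 in OCI-Ly3 and, higher, from 1.06 to 2.18 in DB. LPP rose more in K422 than in the mean of the other lines by 1.35 ± 0.11 (SE; adjusted p = 4.52e-07), and more than in DB by 0.70 (adjusted p = 0.00468). For AL080232 the difference from DB had an adjusted p of 0.963.

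Genes of the germinal center B cell signature held 9 of the called rises. Of 22 measured members, 9 were called higher and 0 lower, and 18 had a positive log2 ratio, with a median of 0.44 against 0.00 over all measured genes. LPP, NEIL1 and VNN2 were chosen by the study on these samples, and without them 6 of 19 members were called higher, with a median of 0.36. The same 9 genes were called again without any 1 array and by the methods' t-test, and 6 of them under normexp with median centring. By limma 15 members were higher and 3 lower at an unadjusted p below 0.05, and the methods' t-test called 0 lower.

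NEIL1, a DNA glycosylase of base excision repair, was at 0.50, 1.51 and 1.58 with siFOXP1 #1 and at 1.22, 1.68 and 1.92 with #2, with replicate 1 of #1 the lowest (mean 1.40 ± 0.50, SD, n = 6; adjusted p = 3.96e-05). MYBL1, a MYB-family factor of germinal center centroblasts, stayed between 1.03 and 1.16 on every array (mean 1.12 ± 0.05; adjusted p = 1.84e-06), and its 3 other probes gave 0.68, 0.73 and 0.83.

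VNN2, a pantetheinase, ranged from 0.82 to 1.13 with a mean of 0.98. S1PR2, the receptor that confines B cells to the germinal center, ranged from 0.52 to 0.96 with a mean of 0.77, and its second probe gave 0.43. LRMP, a membrane protein of lymphoid cells, ranged from 0.43 to 0.89 with a mean of 0.70. MME, the CD10 endopeptidase, ranged from 0.50 to 0.83 with a mean of 0.69, and GCET2, a germinal center signalling adaptor, ranged from 0.46 to 0.84 with a mean of 0.62. These genes and LPP were above 0 on every array with each siRNA. Of the members that were not called, LMO2 had a mean of 0.51 but an adjusted p of 0.410, BCL7A was at 0.46 and BCL6 at 0.10. SERPINA9 was at -0.16 and NEK6 at -0.38.

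**Figure D3:**
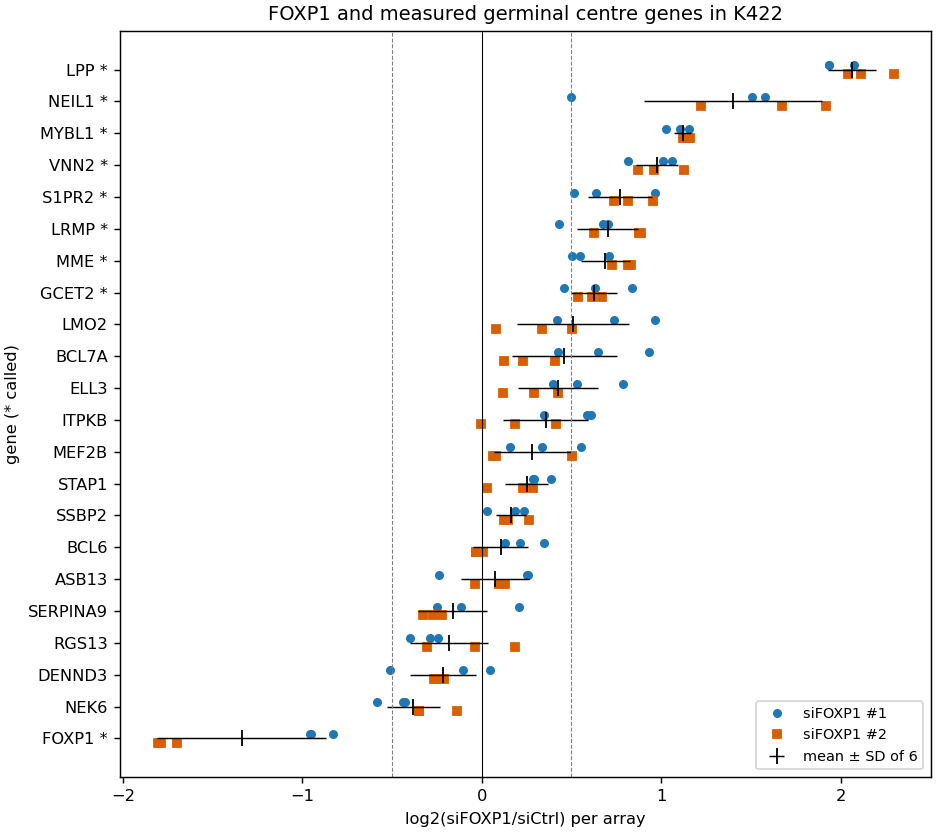
Log2 ratio (siFOXP1 over siCtrl) on each of the 6 K422 arrays for FOXP1 and 21 of the 22 measured germinal center genes, with siFOXP1 #1 as circles and #2 as squares, the mean ± SD of 6 arrays in black and dashed lines at log2 ratios of 0.5 and -0.5. FOXP1 lies below 0 on every array and the 8 genes marked as called higher lie above 0 on every array.

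Other lists are read against the 2.32% of all measured genes that rose and the 1.96% that fell, and a list of under 20 genes with 0 called is near these shares. Of 17 measured B cell identity genes, 0 were called, with a median of 0.13, although 7 were higher and 3 lower at an unadjusted p below 0.05 by limma and the methods' t-test also called 0. In the list of ABC and plasma cell genes, 3 of 13 were called higher (1 under normexp with loess and 0 under normexp with median centring), namely IGJ, the joining chain of secreted antibodies (0.59 to 1.14, mean 0.94), SH3BP5, an adaptor that inhibits BTK (mean 0.60), and BMF, a BH3-only activator of apoptosis (0.78 to 2.11, mean 1.38). For BMF the siCtrl signal passed background on 3 of 6 arrays. PRDM1 and XBP1, which drive plasma cell differentiation, were each at 0.17 and were not called.

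No MHC class II gene was called among 17 measured, and the median was -0.14. Under normexp with median centring 2 were called lower. By limma 2 were higher and 4 lower at an unadjusted p below 0.05, and the methods' t-test called 0. HLA-DRA, an antigen-presenting chain, ranged from -0.39 to -0.06 (mean -0.17; adjusted p = 0.318), and CIITA, the coactivator of these genes, from -0.45 to -0.23 (mean -0.33; adjusted p = 0.285). Both p-values rest on the spread shared over all lines. The other CIITA probes, bright in both channels, gave -0.12, 0.05 and -0.28. CD74, the invariant chain, was at 0.19 (adjusted p = 0.131). MHC class I presentation had 0 of 18 called and a median of 0.02, and the methods' t-test also called 0 after adjustment. At an unadjusted p below 0.05 by limma, 3 were higher and 3 lower. HIP1R, an endocytic adaptor, was above 0 on all 6 arrays, from 0.17 to 0.49, and its mean of 0.31 had an adjusted p of 0.00151 but lay under 0.5.

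Among survival and stress genes, 3 of 14 measured BCL2 family members rose and 0 fell. None of the 14 was called under either normexp setting. Beside BMF, these were the survival factor BCL2L1 (0.38 to 0.86, mean 0.58) and BBC3, the BH3-only protein PUMA (mean 0.52). BBC3 lost its call without replicate 1 of siFOXP1 #1, at 0.49, and without replicate 1 of #2, at 0.50. Its other probes, bright in both channels, gave 0.86 and 1.26. Of 23 measured p53 targets, 3 rose and 0 fell, with a median of 0.00, and 1 was called higher under either normexp setting. GADD45A, which acts in DNA damage arrest, ranged from 0.49 to 0.97 (mean 0.73; adjusted p = 1.66e-07). TP53INP1, a proapoptotic p53 target, was at 0.51 and lost its call without any 1 of 5 arrays, with values down to 0.46. CDKN1A and MDM2, the classic p53 targets, were at -0.45 and -0.46 and did not pass the fold limit.

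In cell cycle genes 1 of 41 was called, CDKN2C, a CDK4 and CDK6 inhibitor, which rose on all 6 arrays from 0.32 to 0.78 (mean 0.56). Under either normexp setting 0 cell cycle genes were called higher and 1 lower. In the integrated stress and unfolded protein response 0 of 29 were called, and the methods' t-test also called 0 after adjustment. At an unadjusted p below 0.05 by limma, 3 were higher and 0 lower. ATF3 had a mean of 1.23 but an adjusted p of 0.155. CHAC1, a glutathione-degrading enzyme, ranged from 0.29 to 0.69 (mean 0.43; adjusted p = 0.523, with the spread shared over all lines). Genes of sterol and fatty acid synthesis had a median of -0.18. Of their 24 measured members, 7 were lower and 1 higher at an adjusted p below 0.05 without the fold limit, against 14.5% and 14.9% of all measured genes, and 1 was called lower with that limit.

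Signalling and surface genes moved in both directions. CXCR4, which guides B cells to the dark zone, gave log2 ratios of 2.17, 0.69 and 0.59 with siFOXP1 #1 and 1.59, 1.04 and 0.90 with #2. Replicate 1 was highest with each siRNA, and the mean was 1.16 ± 0.60 (SD, n = 6; adjusted p = 1.03e-04). GPR183, which draws activated B cells to the follicle border, was below 0 on 5 of 6 arrays (mean -0.73), and the chemokine CCL3 ranged from -1.32 to -0.48 (mean -0.87). CCL3 and LTB, which encodes a lymphotoxin subunit, were the called members of 17 measured NF-kB genes. LTB was at -0.98, 0.20 and -0.04 with siFOXP1 #1 and at -0.77, -0.91 and -0.79 with #2, and without replicate 1 of #1 its mean of -0.55 became -0.37 and was not called.

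The costimulatory and checkpoint list had 2 of 11 higher and 1 lower, with 0 higher under either normexp setting or with the replicate block. CD48, the ligand of the NK receptor 2B4, fell from -0.89 to -1.69 over the arrays (mean -1.24), although its siFOXP1 channel was well above background on 3 arrays. SLAMF6 and LGALS9, at 0.56 each, lost their calls without any 1 of 4 and 3 arrays, with values down to 0.45 and 0.39. In adhesion genes, LPP and PECAM1 (0.65) were higher, and the integrin chains ITGB2 (-0.57) and ITGA4 (-0.56) were lower. Without replicate 1 of siFOXP1 #1, ITGA4 was at -0.47 and was not called. Axon guidance genes had SEMA4D, a semaphorin that binds plexin B1 and CD72, at 0.87, and PLXNA1, a receptor of this family of ligands, at -0.93. A second SEMA4D probe gave 0.24. Of the axon guidance list, 0 genes were called higher and 1 lower under either normexp setting. PLXND1 was called at 0.73 and lost its call without any 1 of 5 arrays, with values down to 0.63. The mean over its probes was -0.55, but its second probe, at -1.83, is dim. That probe passed background on 0 arrays with siFOXP1 and on 2 with siCtrl, so its ratio rests on surrogate values.

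Of 20 measured Wnt pathway genes, 2 rose and 4 fell. Under either normexp setting 1 was called higher and 0 lower, so every call of a fall was lost. The Frizzled receptors were split, with FZD1 at 0.66 and FZD2 at 0.60 against FZD5 at -0.65 and FZD7 at -0.60. Another FZD5 probe bright in both channels gave -0.26. The ligands WNT3 (-0.64) and WNT10A (-0.52) fell. In the quiescence list FOXO4, a forkhead factor under PI3K control, was at 0.83 and KLF2, which maintains the resting state of lymphocytes, at -0.80. The second KLF2 probe gave -0.16. Of the quiescence list, 0 genes were called higher and 1 lower under either normexp setting. FCRL3, an Fc receptor-like protein of B cells, rose from 0.77 to 1.51 (mean 1.01), and FCGBP, at 0.53, lost its call without any 1 of 4 arrays, with values down to 0.36. RGS18 (0.69) and RGS20 (0.77), regulators of G protein signalling, rose, and RGS20 was at 0.64 and not called without replicate 1 of siFOXP1 #2.

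In the lists that remain, calls were few. PIK3R1, the regulatory subunit of PI3K, was the called gene of 25 in B cell receptor signalling at 0.51, and was lost without replicate 1 of siFOXP1 #1, at 0.45, or of #2, at 0.49. In that list 0 genes were called higher under either normexp setting. SOCS1, a feedback inhibitor of JAK kinases, was at 0.51 and lost its call without any 1 of 5 arrays, with values down to 0.46. Among 31 interferon-stimulated genes, 2 were called higher and 0 lower under normexp with loess, but 0 higher and 2 lower under normexp with median centring. In the main fit IFIT2 (0.72, and 0.45 with its second probe) and IFI35 (0.55) were higher. Without replicate 1 of siFOXP1 #1 neither was called, at 0.65 and 0.48. HIST1H2AC was at 0.90 and HIST1H4A at -0.67 among 38 histone genes, and without that same array they were at 0.80 and -0.57 and not called. The glutamate transporter SLC1A1 was the called gene of 15 amino acid carriers, and it ranged from 2.59 to 3.45 (mean 2.86) while siCtrl passed background on 2 of 6 arrays, so that the size rests in part on surrogate values. LCK, a SRC-family kinase that some B cell lymphomas express, fell to a mean of -0.68, and CSF1R, the macrophage growth factor receptor, was at -0.99. They were called lower in the T cell and myeloid lists, where 1 of 6 and 1 of 5 measured genes were called. For CSF1R the siFOXP1 channel passed background on 4 of 6 arrays, and 0 myeloid genes were called under either normexp setting.

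**Figure D4:**
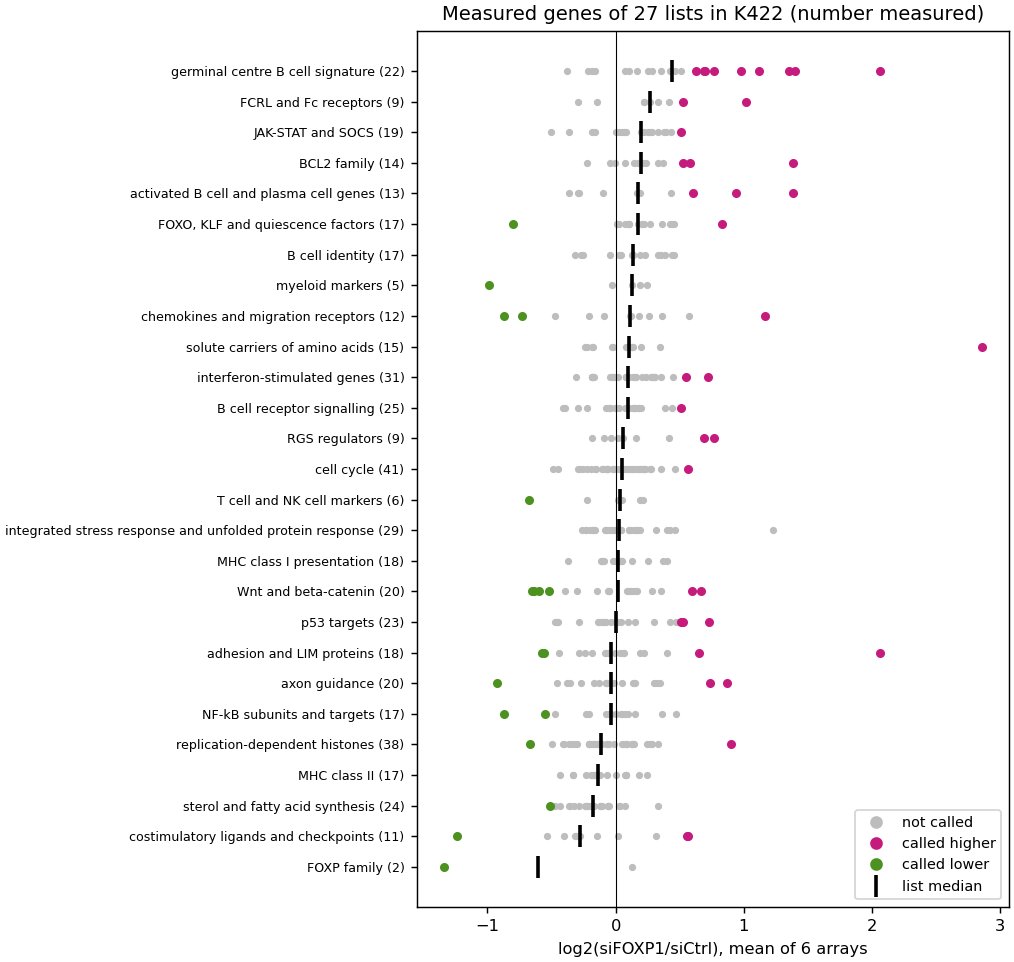
Mean log2 ratio (siFOXP1 over siCtrl) of every measured member of 27 gene lists in K422, 1 point per gene, with the number measured beside each name and the list median as a bar. The germinal center list has the highest median, at 0.44, and 9 of its 22 genes were called higher.

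Outside the lists, the greatest rises beside the chromosome 3 region were THC2665334 (2.61), an unnamed sequence on chromosome 2, FIGF, the growth factor VEGF-D (1.60 to 2.91, mean 2.24), A_32_P218707 (1.95) and FAM102A (1.92), an estrogen-induced gene. FAM102A was at 3.07, 1.48 and 1.33 with siFOXP1 #1 and at 2.61, 1.54 and 1.47 with #2. As with CXCR4, replicate 1 was highest with each siRNA.

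Of genes bright in both channels, the falls were led by C14orf65 (-2.07 to -1.41, mean -1.75), whose other probes gave -1.47 and -0.22. MGC50722 (-1.65), AF086329 (-1.65) and AI263083 (-1.62) are sequences of unnamed function. AF086329 was at -1.08, -1.61 and -2.32 with siFOXP1 #1 and at -0.94, -1.63 and -2.33 with #2, so arrays of the same replicate number lay close together. LRRC32, the latent TGF-beta anchor GARP, ranged from -3.01 to -0.82 (mean -1.51). TMEM130 was at -1.45, TMEM65, a mitochondrial membrane protein, between -1.48 and -1.20 on every array (mean -1.33; adjusted p = 1.42e-08) and GPSM1, a modulator of G protein signalling, at -1.33. The estrogen receptor GPER (-1.26) and the metabolite receptor GPR109B (-1.22) are both coupled to G proteins.

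Where the dimmer channel stayed at background on every array, only a bound on the change can be given, which sets the normalized signal of the brighter channel against the lowest signal that passed background on each array or the dim probe's own, if that was higher. MALL, a lipid raft protein, was at least 3.47-fold higher, and MYO5B, a vesicle motor, at least 3.19-fold higher. TBC1D9 and CES7 were at least 1.75-fold and 1.37-fold higher, BC031939 at least 1.25-fold and SLC46A3 at least 1.36-fold. In the other direction C12orf42 was at least 4.14-fold lower, OR2W3 at least 3.71-fold, AF334588 at least 3.40-fold and DOCK4, a Rac activator, at least 2.84-fold. All of these genes count as measured through the brighter channel alone. Their calls rest on surrogate values in the dimmer channel, so no p-value is given with the bounds.

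Both siRNAs were then compared with each other. With siFOXP1 #1 alone, 511 measured genes rose (2.95%) and 414 fell (2.39%), and with #2 alone, 259 rose (1.5%) and 213 fell (1.23%). Genes past the threshold in the same direction with each siRNA numbered 179 higher (1.04%) and 117 lower (0.677%) among measured genes, and 2 of all genes tested (0.00664%) passed in opposite directions. Although #2 lowered FOXP1 further, its changes were not the larger ones. Of the 402 measured genes that rose, 176 (43.8%) changed more with #2, and the median size was 0.63 on the log2 scale with #2 and 0.70 with #1. Of the 339 that fell, 139 (41.0%) changed more with #2, with medians of 0.62 and 0.73.

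A test of the difference itself called 6 measured genes higher (0.0347%) and 15 lower (0.0867%) with #2 than with #1. Taking the replicate number as a block, 67 measured genes differed, and on the K422 arrays alone limma called 0, where 294 passed at an unadjusted p below 0.05 and the fold limit. OGN, an extracellular proteoglycan, was at 1.19, 1.06 and 0.98 with siFOXP1 #1 and at 2.36, 2.84 and 2.55 with #2, a difference of 1.51 ± 0.20 (SE; adjusted p = 0.00312). OGN rose with each siRNA and the siRNAs did not overlap. SPINT2, a protease inhibitor, was at 0.75, 0.74 and 0.45 with #1 and at -0.36, -0.23 and -0.17 with #2, on opposite sides of 0 (difference -0.90 ± 0.08; adjusted p = 5.79e-05). TMEM64 and GALNT1, a mucin-type glycosyltransferase, were between -1.09 and -0.66 with #1 and between -0.19 and -0.02 with #2. MAP3K2, a kinase, differed by 0.61 in the same way.

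PLXNA1, a semaphorin receptor, fell further with #2, from -1.57 to -1.05 against -0.58 to -0.36 with #1 (adjusted p = 0.0297). VAMP3, a vesicle fusion protein, differed by -0.85, and GRASP, a scaffold protein, by -2.08, though its replicates ranged from 0.43 to 2.11 with #1 and from -1.77 to -0.02 with #2.

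The K422 response was set against the mean of DB, HBL-1 and OCI-Ly3. Of 13256 genes bright in both channels on all 24 arrays, 65 were higher in K422 and 108 lower. Over all genes these counts were 293 (0.972%) and 363 (1.2%). SERPINB9, the granzyme B inhibitor, was at 1.77, 1.88 and 1.80 with siFOXP1 #1 and at 1.56, 1.72 and 1.43 with #2, against means of 0.21 in HBL-1, 0.13 in OCI-Ly3 and -0.04 in DB. Its rise in K422 exceeded the other lines by 1.59 ± 0.06 (SE; adjusted p = 2.75e-11). TNFRSF21, the death receptor DR6, ranged from 1.59 to 1.94 in K422 and lay between 0.12 and 0.15 in the others (difference 1.63 ± 0.11; adjusted p = 7.79e-08).

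SLC41A1, a magnesium transporter, differed by 1.48 and AK124426, an unnamed sequence, by 1.43. Each of these 4 genes also exceeded DB at an adjusted p below 0.05, and AK124426 did not exceed HBL-1 by this test, with an adjusted p of 0.0782. In the other direction C14orf65 differed by -1.60, PODXL, an anti-adhesive sialomucin, by -1.54, GPSM1 by -1.46, and LSP1, an actin-binding protein of leukocytes, and LTB by -1.32 each. LSP1 was between -1.21 and -0.65 in K422 and had means of 0.39, 0.59 and 0.39 in DB, HBL-1 and OCI-Ly3. LTB differed from DB by -0.37 with an adjusted p of 0.140. K422 and HBL-1 arrays share a scan date, and DB and OCI-Ly3 arrays have another. The part of scan date in the differences from DB and OCI-Ly3, and so from the mean of the other lines, was not tested. Within the shared date, K422 minus HBL-1 was 1.49 for SERPINB9, 1.61 for TNFRSF21 and -1.45 for LSP1.

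**Figure D5:**
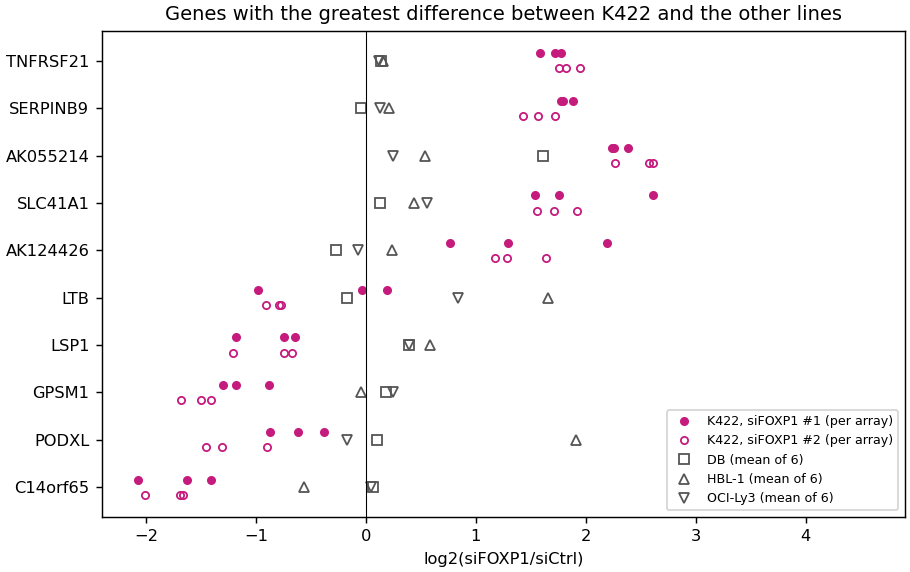
Log2 ratio (siFOXP1 over siCtrl) for the 5 genes with the greatest positive and the 5 with the greatest negative difference between K422 and the mean of the other lines, with the 6 K422 arrays as circles, filled for siFOXP1 #1 and open for #2, and the mean of 6 arrays of each other line as open symbols. For SERPINB9 and TNFRSF21 the K422 arrays lie above 1.40 and the other lines below 0.25, and for AK055214 DB lies at 1.61.

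Promoters were searched for forkhead-type motifs, since FOXP1 binds such sites. The 250 bases before each start in RefSeq (GRCh38.p14) were scanned on both strands for the core GTAAACA, then for the related TATTTGT and last for the variant TATTTAT. At least 1 motif was present in 12 of 208 promoters of genes called higher in both channels (5.77%), in 9 of 127 of those called lower (7.09%), in 5.36% of the 9343 promoters of all genes bright in both channels and in 6.99% of all 14427. A pair of promoters is shown with the motif in capitals, that of CDKN2C, which rose, at chr1:50960495-50960744 on the plus strand, and that of FOXP1 itself at chr3:71583729-71583978 on the minus strand. The first holds the reverse complement of TATTTGT and the second TATTTAT.

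CDKN2C promoter: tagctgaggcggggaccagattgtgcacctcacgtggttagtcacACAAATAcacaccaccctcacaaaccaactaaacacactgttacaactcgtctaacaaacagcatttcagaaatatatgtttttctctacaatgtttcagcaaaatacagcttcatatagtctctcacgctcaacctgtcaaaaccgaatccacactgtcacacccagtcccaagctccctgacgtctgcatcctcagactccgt

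FOXP1 promoter: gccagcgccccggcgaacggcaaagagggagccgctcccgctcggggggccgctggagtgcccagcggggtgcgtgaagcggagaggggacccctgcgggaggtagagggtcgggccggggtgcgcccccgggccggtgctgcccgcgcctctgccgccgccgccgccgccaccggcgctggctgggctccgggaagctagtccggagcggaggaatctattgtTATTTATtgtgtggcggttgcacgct

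A match describes these letters alone and does not show binding.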

How the data were processed

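Total RNA of K422 cells was labelled with Cy3 (siFOXP1) or Cy5 (siCtrl) and hybridised to Agilent 2-colour arrays. The authors deposited Feature Extraction output (version 10.7.3.1 for K422, per the file headers), in which each spot has an intensity for either dye and a log10 ratio (Cy5 against Cy3) that the software had corrected for background and normalized by a linear and loess step. The series also holds output of another version of this software. The authors also deposited a matrix of log2 values, used as an alternative. Each log10 ratio was turned into log2(siFOXP1/siCtrl), omitting control and outlier spots. Repeated spots were averaged, and the brightest probe stood for a gene. Of the design's names, 18368 of 30139 were found in RefSeq, and coordinates are hg18.

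A limma 3.58.1 model (R 4.3.3) was fitted to all 24 arrays with 8 means, 1 for each line and siRNA, and the K422 value is the mean of its 2 siRNAs. P-values were adjusted by Benjamini-Hochberg over all genes. On simulated data for 29553 genes, 95% of genes changed by 1.5 on the log2 scale were recovered in K422 and 72% of those changed by 0.75. The simulated noise was independent between arrays, with 100 genes changed at each size. The real K422 arrays of the same replicate number deviated together, so these shares need not hold for them.

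Named genes are FOXP1, those of the study's text, the 12 greatest rises and falls well above background in both channels on all 6 arrays, up to 6 in each direction with a bound, the 4 greatest differences each way between siRNAs, the 5 each way from the other lines, and from each list up to 6 called members by size. LRMP, MME and GCET2, called but outside these 6, and uncalled list members were named after their values were seen. The members and lists were chosen with earlier results of these data known. Gene lists carry no test of their own. Some list members are counted but not reported here by name. Signals for bounds were scaled between arrays (Aquantile).

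The labels give replicate numbers but no shared origin. Deviations from the siRNA means correlated between arrays of the same replicate number by 0.0998, 0.0737 and 0.117 over all genes and by 0.293, 0.316 and 0.473 over genes bright in both channels. The siCtrl channels of the same number deviated together too (0.824, 0.679 and 0.584); whether control RNA was shared was not tested. The fit with the number as a block was an alternative. Other alternatives were background corrections, filters on dim probes, centring, the deposited matrix, outlier spots kept, the mean over probes, slide as a block, K422 alone, the methods' t-test, each siRNA alone and leaving out arrays.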

Additional observations from a re-analysis of the deposited data

Results flagged for a closer look

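For 9 of 98 called genes that were named, 1 of the 6 K422 arrays lay far from the rest, where chance flags about 5% of groups. Replicate 1 of siFOXP1 #1 was the far array for SLC41A1 (2.61, others up to 1.92), ITGA4 (-1.04), ITGB2 (-0.828) and LYZ (0.00), which is dim. Replicate 1 of siFOXP1 #2 was the far array for THC2665334 (1.86), CES7 (1.70) and the dim gene CD44 (0.73, others at most -0.48), replicate 3 of #1 for LRRC32 (-3.01) and replicate 2 of #1 for MGC50722 (-0.786). The spread of log2 ratios over the array was largest on replicate 1 of siFOXP1 #1, at 0.515 against 0.412 to 0.448 on the other arrays.

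The siRNAs differed by the test of the difference for OGN (1.51), TMEM64 (0.82), GALNT1 (0.69) and MAP3K2 (0.61), which were higher with siFOXP1 #2, and for GRASP (-2.08), SPINT2 (-0.90), PLXNA1 (-0.90), VAMP3 (-0.85) and FOXP1 itself (-0.85), which were lower.

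K422 differed from the mean of the other lines by the same kind of test for TNFRSF21 (1.63), SERPINB9 (1.59), AK055214 (1.59), SLC41A1 (1.48) and AK124426 (1.43), and for C14orf65 (-1.60), PODXL (-1.54), GPSM1 (-1.46), LSP1 (-1.32) and LTB (-1.32).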

How the results depend on the processing

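Counts over all genes and over the germinal center list are given here where an alternative moved them by more than 1.5 times. With siFOXP1 #1 alone, 212 genes were 2-fold higher. With siFOXP1 #2 alone, 388 genes were higher and 377 lower at the main limit, 259 and 213 of those measured, and 403 in both channels. Under normexp with loess, 156 genes were higher and 98 lower at the main limit, the same numbers among measured genes, 21 and 6 at 2-fold, 244 called in both channels, 148 past the threshold with each siRNA, 44 measured genes differing between siRNAs, and 74 above and 100 below the other lines. Under normexp with median centring, 79 were higher and 402 lower, 79 measured genes higher, 18 and 18 at 2-fold, 57 with each siRNA, 1 differing between siRNAs, which was measured, 51 above and 78 below the other lines, and 1 germinal center gene lower with 6 higher. Under this setting, which changes both the background correction and the normalization, 16.4% of called genes were higher, against 52.6%, and under normexp with loess 61.4% were. The deposited matrix gave 974 lower genes, a share of 42.1% higher, and 13 measured genes differing between siRNAs.

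Requiring a channel well above background before adjustment gave 416 and 353 genes, 64 and 45 at 2-fold, 22 differing between siRNAs and 168 above the other lines. Requiring both channels gave 332 and 299, 43 and 23 at 2-fold, 20 differing, and 133 above and 224 below the other lines. Fewer genes were tested in both. The replicate block gave 139 genes differing between siRNAs, 67 of them measured, against 48 and 21 without it, and, of measured list members called higher, 0 against 2 in the costimulatory list, 1 against 2 in the Fc receptor and axon guidance lists and 0 against 1 in the JAK-STAT list. It moved no other count given here by over 1.5 times. Slide as a random block gave 76 and 39. The 6 K422 arrays alone gave 448 and 402 genes, 98 at 2-fold lower, 207 with each siRNA and 0 differing, of 635 at an unadjusted p below 0.05 and the fold limit by limma. By the methods' t-test there were 367 lower and 391 higher genes after adjustment, 91 at 2-fold lower, 0 with each siRNA, where 291 passed unadjusted, and 0 differing, where 491 passed unadjusted. For the other counts the cause was not tested.

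Leaving out arrays gave 580 to 793 higher and 523 to 703 lower genes, 328 to 451 and 275 to 397 of those measured, 126 to 166 and 145 to 172 at 2-fold, 493 to 721 in both channels, 240 to 371 with each siRNA, 49 to 99 differing between siRNAs, 12 to 28 of them measured, 249 to 301 above and 282 to 355 below the other lines, and 9 to 10 germinal center genes higher. FOXP1 stayed between -1.38 and -1.32 without any array and was at -0.91 with siFOXP1 #1 and -1.76 with #2. Without replicate 3 of siFOXP1 #2 the count past the threshold with each siRNA was 240, and without replicate 3 of both it was 242. Genes differing between siRNAs numbered 81 without replicate 2 and 77 without replicate 3 of siFOXP1 #1, 99 without replicate 2 and 85 without replicate 3 of both, and measured ones 12 without replicate 1 of #2 and 13 without replicate 1 of both.

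Among named genes RGS1, EBI3, EGR3 and LYZ are dim. Those that changed sign were RGS1 (-0.089 with siFOXP1 #1), GRASP (-0.70 with #2 and from -0.014 without replicate 3 to 0.842 without replicate 1), MAP3K2 (0.026), SPINT2 (-0.25) and VAMP3 (-0.25) with #2, BBC3 (-0.14), EBI3 (0.058), EGR3 (0.048) and LYZ (0.046) under normexp with median centring, and PLXND1 (-0.55) as the mean over probes. Of 98 named genes called, 77 were called without any 1 array. Centring on the median of all probes changed nothing, because that median is 0, and centring on genes in both channels, chosen after seeing the data, kept every count within 1.5 times. The depth of an array is set by its signal over background, and dim genes carry no measured size.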

Other observations

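Calls on the array are not all separate loci. Of 398 measured genes that rose and have an hg18 position, 80 lay within 100 kb of another gene that rose, in 38 groups, which leaves 356 loci. Of 334 that fell, 25 lay in 12 groups, which leaves 321. The chromosome 3 cluster at LPP was the largest group, with 6 entries, and the largest among falls was CALHM2 (-0.57), CALHM1 (-0.90) and CALHM3 (-0.94) on chromosome 10, genes of calcium homeostasis modulator channels that lie side by side. These values are given as a description of positions, and no test was made.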
